A study of Mus musculus with 4 samples.

Results

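Among the probes of a mouse expression array are many that carry no gene name and stand for a stretch of genome given by chromosome, start, end and, in nearly every case, strand. They were taken from the scanner files as the non-control probes whose systematic name is such an interval. There were 16194 of them among 55681 non-control probes, which is 29.1%. They covered 3543 distinct intervals on 20 chromosomes, with a median length of 7304 bases and a range from 62 to 7128487 bases. In 1067 intervals both strands had probes, in 1251 only the strand marked F, in 1222 only the strand marked R, and 3 intervals with 13 probes had no strand mark. The files do not say whether F and R name the strand of the transcript or of the probe, so the letters are used as given. An interval and strand had from 1 to 10 probes, with a median of 3, and 3920 of the 4610 interval and strand pairs had 2 or more. Many intervals overlap one another, and joining those that do leaves 2226 separate loci, so the probes are not independent of each other. Positions are those of the mm9 build, which the files name. The annotation at hand is of another build, so whether an interval overlaps a known gene, exon or intron was not determined here, and the label of intervals without a gene holds only in that the files name none.

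Much of a mammalian genome is transcribed outside protein-coding genes, and large intergenic noncoding RNAs are spliced and polyadenylated transcripts from such stretches, often low in abundance and restricted to particular cell types. Some act on chromatin or on nearby genes, and many stay in the nucleus. JQ1 is a bromodomain inhibitor that keeps reader proteins off acetylated histones and thereby lowers transcription at many enhancers and promoters, including transcription of noncoding stretches. LSK cells, which lack lineage markers and carry c-Kit and Sca-1, are the bone marrow fraction that holds the blood stem cells, and megakaryocyte/erythroid progenitors (MEP) are a later step towards platelets and red cells.

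All 4 arrays came from cells of the genotype JAK2V617F/Ezh2Δ/Δ on the C57BL/6 background, so both alterations are shared and there is no array without them. JAK2V617F is the constitutively active kinase of myeloproliferative neoplasms and Ezh2 encodes the catalytic subunit of the polycomb repressive complex PRC2. Donor marrow from JAK2V617F;Ezh2flox/flox;Cre-ERT2 mice was put into lethally irradiated wild-type recipients marked CD45.1+, Ezh2 was then deleted, and the recipients were given JQ1 or its solvent DMSO for 2 weeks before LSK and MEP cells were sorted from bone marrow. The groups were the 2 cell types with DMSO and the 2 with JQ1 (DMSO LSK, DMSO MEP, JQ1 LSK and JQ1 MEP), 1 array each. Series of 4 values below run through LSK with DMSO, LSK with JQ1, MEP with DMSO and MEP with JQ1. Neither the age of the mice, the number of mice behind an array nor a gate on donor cells is given in the sources used here, and a recipient can keep some marrow cells of its own.

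With 1 array per group no difference has a replicate check, and no p-value or SD is given for any of them; the number of arrays limits the precision. A level is the log2 of a probe's processed signal minus the log2 of the 75th percentile of its array, which stood at 210, 245, 327 and 233 signal units on the arrays in that order. A probe counts as detected where the scanner software marked it well above background. The scanner's own error of a detected interval probe was between 11.5% and 12.0% of the signal at the median. In a comparison a probe was measured if detected on both arrays, and its difference was taken relative to the median of all measured probes; a difference of 2-fold (1 on the log2 scale) was called, as a description of these 2 arrays. Signal depends on a probe's own sequence, so levels are compared between arrays and not between probes. Markers of the sorted types were summed: the level of 8 MEP markers, in units of each array's 75th percentile, was 22.5 and 17.1 on the DMSO and JQ1 LSK arrays against 215 and 258 on the MEP arrays. The 8 LSK markers summed to 256 and 317 in LSK against 108 and 114 in MEP. Most of each of these sums was Cd34, at 7.51 and 7.92 in LSK against 6.41 and 6.46 in MEP. Of the other LSK markers, Ly6a, the gene of the Sca-1 antigen, read 4.49 and 4.28 in LSK against -0.32 and 0.21 in MEP. Slamf1, a stem cell surface marker, was instead lower in LSK, at -1.90 and -0.90 against 0.23 and 0.35. Mecom, on the same list, was also lower on DMSO LSK than on DMSO MEP. The Ezh2 probe read between 3.31 and 3.69 on all 4 arrays, and since its place relative to the deleted exons was not determined, it does not check the deletion.

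Interval probes were detected less often than probes of RefSeq messenger RNAs on every array, and most often on the DMSO MEP array. The share detected was 26.4% on DMSO LSK (4270 probes), 28.7% on JQ1 LSK (4640), 37.4% on DMSO MEP (6052) but 24.9% on JQ1 MEP (4029). Over all probes of the array the shares were 45.6%, 47.4%, 53.2% and 45.2%. Probes of RefSeq noncoding transcripts (accessions starting NR_) were nearer to the intervals, at 30.6%, 33.6%, 39.1% and 31.0%, and messenger RNA probes (NM_) stood at 60.7%, 62.1%, 65.9% and 61.2%. Thus the DMSO MEP array lay above the other 3 in each class.

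Most interval probes were detected either on no array or on every array. Of the 16194 probes, 9342 (57.7%) were detected on no array and 3379 (20.9%) on all 4, against 42.7% and 41.3% of all probes. Another 1380 (8.52%) were detected on DMSO MEP alone, against 5.54% of all probes and 3.28% of messenger RNA probes, and they were dim there, with a median level of -3.39. The lowest level of any detected probe was -3.38, -3.80, -4.24 and -3.65 on the 4 arrays. Relative to its 75th percentile DMSO MEP thus reached lower than the others, and that median lay at the limit of DMSO LSK. In signal units the limits were closer together, at 20.1, 17.5, 17.2 and 18.6 in the same order. The part of these limits in the count was not tested. Detection on a single other array was rarer: 223 probes (1.38%) on DMSO LSK alone, 266 (1.64%) on JQ1 LSK alone and 211 (1.30%) on JQ1 MEP alone, beside 1.11%, 1.29% and 1.02% of all probes. By interval and strand, at least 1 probe was detected in 50.4% of the 4610 pairs on DMSO LSK, 53.2% on JQ1 LSK, 62.1% on DMSO MEP but 48.1% on JQ1 MEP. Every probe of a pair was detected far less often: of the 3920 pairs with 2 or more probes, in 356 (9.08%), 415 (10.6%), 665 (17.0%) and 337 (8.60%). These shares by pair were not computed for the other names on the array, so they do not set intervals apart from transcripts. Within 1 interval some probes were therefore above background while their neighbours were not.

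The 3 probes of chr17:17481706-17482457 on the R strand show an interval seen along its whole set and steady across cells and treatment. Its probes read 7.76, 9.26 and 8.75 on DMSO LSK, 7.76, 9.17 and 8.65 on JQ1 LSK, 7.61, 9.09 and 8.55 on DMSO MEP, then 7.91, 9.35 and 8.84 on JQ1 MEP. The 3 probes of chr6:116123643-116124550 on the F strand did likewise, between 8.30 and 8.67 over all 4 arrays. The brightest interval probe was the only one on chr11:22681800-22707775 R, at 10.20, 10.03, 9.69 and 10.11. By contrast, chr14:78924115-78938125 F had a single bright probe, at 9.58, 9.27, 8.66 and 9.17; of the 6 further probes on that strand 1 was detected, between -2.54 and -2.96, and 5 were detected on no array.

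In the 1067 intervals probed on both strands, signal on 1 strand only was about as frequent as signal on both. Both strands had a detected probe in 399 intervals on DMSO LSK, 442 on JQ1 LSK, 551 on DMSO MEP but 371 on JQ1 MEP. A single strand had one in 445, 428, 382 and 461. The DMSO MEP array was thus the one with clearly more intervals detected on both strands than on 1, and it was also the array with the most detected probes. Where both strands could be measured, their mean differences between arrays bore little relation to each other. Across intervals Pearson's r was 0.04 for JQ1 in LSK (316 intervals), 0.05 for JQ1 in MEP (335), 0.01 for the cell types under DMSO (351) and 0.19 for them under JQ1 (321); these are descriptions over intervals that share arrays and dim signals.

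The question of the treatment comparison is what 2 weeks of JQ1 changed in each cell type, and the interval probes differed most in MEP. Of 3767 probes measured on both MEP arrays, 885 (23.5%) were at least 2-fold lower with JQ1 and 50 (1.33%) at least 2-fold higher. Over all measured probes of the array 10.7% were lower and 1.12% higher, so the interval probes were lower more often than the array as a whole and higher about as often. The share lower was 5.02% for messenger RNA probes, 15.8% for RefSeq noncoding probes and 8.33% for all probes that are not on intervals. The median interval probe lay at -0.26, and the median of the other probes at 0.03. Under quantile normalization the split was 153 higher and 668 lower. The share lower was again larger among interval probes (17.7%) than among the others (6.47%), and so was the share higher (4.06% against 2.47%). Scaled to the spike-in RNAs, which moves the median of all measured probes to -0.60, the shares lower were 42.7% and 22.3%.

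In some intervals every measured probe was lower. Of 880 interval and strand pairs with 2 or more measured probes, 136 (15.5%) had every measured probe at least 2-fold lower with JQ1 in MEP, against 4.73% of all names on the array with 2 or more measured probes. The pair with the most such probes was chr4:129497990-129515290 F. Its 10 probes read from -0.70 to 2.08 on DMSO LSK, from -1.29 to 1.94 on JQ1 LSK, from 0.50 to 3.57 on DMSO MEP but from -2.15 to 1.40 on JQ1 MEP. Each probe was highest on DMSO MEP and lowest on JQ1 MEP, and the differences between the MEP arrays ran from -2.91 to -2.21. On chr16:90008636-90015586 R all 5 probes differed by -3.24 to -2.82. They read from -0.85 to 0.54 on DMSO LSK, from -1.17 to 0.24 on JQ1 LSK, from 0.10 to 1.60 on DMSO MEP but from -2.48 to -1.07 on JQ1 MEP, so here too DMSO MEP was the highest and JQ1 MEP the lowest. The pooled SD of these differences between measured probes of the same interval and strand was 0.51 log2 in MEP and 0.35 in LSK, wider than the 0.42 and 0.29 over all names on the array; it is a spread over probes of the same 2 arrays and not over samples.

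Not all of the lowest probes had the same shape over the 4 arrays. The lowest difference was that of a probe on chr5:123582742-123588117 R, which read -1.44 on DMSO LSK, -1.11 on JQ1 LSK, 1.88 on DMSO MEP but -1.33 on JQ1 MEP, an 11.1-fold lower signal with JQ1. It was high on DMSO MEP alone, with the other 3 arrays close together. Of its 4 neighbours on that strand, 2 were measured in MEP, and they were also highest on DMSO MEP, at 0.59 and -0.66 against -1.09 and -2.76 with JQ1. In LSK with DMSO and JQ1 the first of them read -1.13 and -1.05. The second read -1.35 and -2.78 there, so it was low on both JQ1 arrays. A probe on chr19:5771425-5848475 R was also high on DMSO MEP alone, at 2.49, 2.44, 5.36 and 2.22. It was 10.6-fold lower with JQ1 in MEP, while the second probe of that interval and strand was detected nowhere. Intervals with every measured probe 2-fold lower included 2 within it on that strand. These were chr19:5798135-5800557 R at -1.93 to -1.89 and chr19:5801802-5802597 R at -2.02 to -1.85, smaller differences than that of the probe above. Malat1, a nuclear long noncoding RNA that is also on chromosome 19, read 2.62, 2.63, 5.55 and 2.28 on the 4 arrays. Whether its gene lies in chr19:5771425-5848475 was not determined here. Both measured probes of chr17:22076711-22099431 R were 8.53-fold and 10.7-fold lower, with levels of -0.18 and 0.02 on DMSO MEP and between -3.14 and -1.91 on the other arrays.

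In a second group the JQ1 MEP array stood apart and the other 3 were alike. The 3 probes of chr3:30077338-30080281 R read -0.15, -0.71 and -0.90 on DMSO LSK, 0.37, 0.00 and -0.75 on JQ1 LSK, 0.28, -0.17 and -0.83 on DMSO MEP, then -2.64, -3.09 and, not above background, -3.55 on JQ1 MEP. The measured pair was 9.02-fold and 9.06-fold lower with JQ1 in MEP. The overlapping interval chr3:30032959-30079659 R had 3 probes measured in MEP, with differences between -2.50 and -1.89. Mecom, a transcription factor gene of stem cells on the same chromosome, read -2.80, -1.71, -2.15 and, not above background, -4.56; its position relative to these intervals was not determined here. On chr13:28947034-28949166 R the measured pair read 1.53 and 1.22, 2.18 and 1.74, 1.63 and 1.29, and -0.43 and -0.93 on the 4 arrays in the same order, 4.99-fold and 5.58-fold lower with JQ1 in MEP. A probe on chr1:94077221-94091396 F gave -0.61, -0.83, -0.58 and -3.57, but the other 4 probes of that interval were detected on no array.

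How the 2 shapes are distributed can be counted among the 808 interval probes that were detected on all 4 arrays and lower by 2-fold with JQ1 in MEP. Choosing them by that difference largely fixes which arrays are highest and lowest: DMSO MEP was the highest of the 4 for 726 (89.9%) and JQ1 MEP the lowest for 650 (80.4%), beside 89.8% and 79.3% of the 2395 probes of all kinds chosen in the same way. In 256 (31.7%) the DMSO MEP level alone was 2-fold above both LSK arrays, in 98 (12.1%) the JQ1 MEP level alone was 2-fold below both, in 18 (2.23%) both held, and in 436 (54.0%) neither did. Over the 2395 probes the first, second and last of these shares were 33.4%, 9.27% and 55.8%, and both held in 36. Over the 3379 interval probes detected on all 4 arrays, 265 (7.84%) were 2-fold higher on DMSO MEP than on each other array, against 3.46% of all probes detected on all 4, and 111 (3.29%) were 2-fold lower on JQ1 MEP than on each other array, against 1.03%. For the 402 RefSeq noncoding probes detected on all 4, these 2 shares were 7.21% and 0.995%. With 1 array per group, the group and its array cannot be told apart. Other RNAs moved with the DMSO MEP array. Of 5 nuclear-retained noncoding RNAs listed, 4 had a probe, and their summed level was 10.7, 11.8, 71.3 and 8.20; Meg3 was not detected on the first 3. The 9 immediate early genes, which are induced within minutes of a stimulus, were all detected, with summed levels of 141, 113, 419 and 129. The 8 granulocyte and monocyte markers summed to 1242, 717, 893 and 1651, a sum in which Mpo, the myeloperoxidase gene, read 9.96, 9.18, 9.41 and 10.16. Elane followed the order of the sum over the arrays, at 5.73, 4.71, 5.25 and 6.99. Other genes of the list did not. S100a8 read 2.71, 3.75, 5.62 and 6.94, S100a9 2.65, 4.18, 6.24 and 7.08, and Camp -0.13, 1.85, 3.50 and 4.32. Ltf was not above background on DMSO LSK and read -1.37, 0.25 and -0.20 on the others. Csf1r read 5.35, 3.82, 3.27 and 3.69, and Ly6c1 7.09, 5.97, 4.72 and 6.43. The 6 B cell markers summed to 114, 21.3, 38.0 and 12.5, the 4 T and NK cell markers to 73.4, 74.0, 66.8 and 102, and the 4 markers of stroma and endothelium to between 0.38 and 0.77, with Cdh5, the endothelial cadherin, detected on no array. Most of each B cell sum was Vpreb1, and most of each T and NK cell sum was Nkg7. The part of these RNAs and cells in the interval values was not tested.

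The share of lower interval probes depended on signal. In quartiles of the mean level over the 4 arrays, cut over all measured probes, 25.1% of the dimmest interval probes, 29.2% in the second quartile, 12.8% in the third and 4.57% of the brightest were 2-fold lower with JQ1 in MEP. For messenger RNA probes the shares were 11.6%, 7.34%, 2.44% and 1.32%, below those of interval probes in each quartile. RefSeq noncoding probes gave 19.6%, 13.1%, 24.0% and 6.45%, above the intervals in the upper 2 quartiles, which held 75 and 93 such probes. The share was 27.7% on the R strand and 18.9% on the F strand. By interval length it was 36.4% in the shortest quartile, then 28.0%, 19.2% and 20.5%. No chromosome stood far from the rest, with shares from 15.5% on chromosome 6 to 31.9% on chromosome 1.

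Among the 50 probes higher with JQ1 in MEP, 1 region had several. On chr6:40693617-40720167 F the 3 measured probes read -1.17, -1.48 and -1.93 on DMSO LSK, -1.18, -1.56 and -2.54 on JQ1 LSK, -1.31, -1.99 and -2.48 on DMSO MEP, then 0.64, -0.35 and -0.35 on JQ1 MEP. Both probes of the overlapping chr6:40699474-40719122 F followed, at -1.59 and -1.53 on DMSO MEP against 0.09 and 0.42 with JQ1. Over these 5 probes the median difference was 1.69, and JQ1 MEP was the highest array for each. These were the only 2 of 880 interval and strand pairs with every measured probe 2-fold higher, or 0.227%, beside 0.208% over all names. The highest single difference, 14.2-fold, was on chr3:78982395-79094345 R, where 1 of 7 probes read -3.77 on DMSO MEP and 0.32 on JQ1 MEP and none of the other 6 was detected on JQ1 MEP. Probes detected on only 1 of the MEP arrays have a bound instead of a difference. By bound 178 of the 2546 such interval probes (6.99%) were at least 2-fold higher with JQ1 and 821 (32.2%) at least 2-fold lower, against 7.97% and 29.2% of all probes detected on only 1 of these arrays. The highest bounds rested on single probes: the only probe of chr2:150080526-150082950 R was not above background on 3 arrays and read 2.82 on JQ1 MEP, at least 111-fold higher. On chr6:95418306-95424131 F (at least 38.1-fold) and chr6:52046805-52072744 R (at least 27.5-fold) no other probe of the interval was high there.

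In LSK the interval probes differed less between JQ1 and DMSO. Of 3778 measured probes 42 (1.11%) were 2-fold higher and 114 (3.02%) 2-fold lower, beside 0.652% and 2.81% over all probes of the array, so the share lower was close to that of the array. That closeness depended on the setting: with normexp background correction 2 were higher and 9 lower, which is 0.238% lower against 1.09% of the other probes, and above the median signal 0 and 2, or 0.282% lower against 1.04%. The median was -0.12, and 64.8% of the interval probes lay below 0, against 47.2% of the others. Scaled to the spike-in RNAs the split turned to 307 higher (8.13%) and 30 lower (0.794%), against 6.97% and 0.995% of the other probes. The median of all measured probes was then at 0.60. By bound, of 1351 probes detected on only 1 LSK array, 165 (12.2%) were at least 2-fold higher and 328 (24.3%) at least 2-fold lower, against 11.8% and 24.6% over all such probes.

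Few intervals in LSK had all their measured probes past 2-fold. None of 890 interval and strand pairs had every measured probe higher, and 3 (0.337%) had every measured probe lower, beside 0.106% and 0.768% over all names. The 3 were chr1:85304494-85305390 R with 3 probes, chr4:127020290-127020504 F with 2 and chr3:95754599-95754917 R with 2 of its 3. The lowest difference in LSK was -2.47, on chr7:134369091-134376366 R, where the probe read -1.10 on DMSO LSK and -3.55 on JQ1 LSK while 3 measured neighbours went from -3.01 to -3.28, -2.99 to -2.69 and -2.29 to -2.19. The highest, 2.89 or 7.41-fold, was on chr3:19179899-19216399 R, where 1 of 9 probes read -2.65 on DMSO LSK, 0.27 on JQ1 LSK, -1.78 on DMSO MEP, then -2.42 on JQ1 MEP. On the same strand a neighbour read -1.34, -1.37, -0.93 and -1.83, so the high value belonged to 1 probe. Summed B cell markers were 114 on DMSO LSK and 21.3 on JQ1 LSK, and the 8 granulocyte and monocyte markers summed to 1242 and 717. Within that list S100a8, S100a9 and Camp were 1.02, 1.51 and 1.945 higher on JQ1 LSK on the log2 scale. Ltf was not above background on DMSO LSK and was detected on JQ1 LSK. Elane, Mpo, Csf1r and Ly6c1 were lower on JQ1 LSK, at -1.05, -0.81, -1.56 and -1.15. The part of such cells in the interval values was not tested.

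Over the 3379 interval probes seen on every array, the responses of LSK and MEP to JQ1, which share no array, had a Pearson's r of -0.03. It was 0.15 across 15295 messenger RNA probes and -0.04 across 402 RefSeq noncoding probes. These are descriptions across probes, which are no replicates. Lower by 2-fold in both were 33 interval probes (0.977% of them, beside 0.552% of probes of all kinds detected on every array), and higher in both 3 (0.0888% beside 0.0391%). Higher in LSK and lower in MEP were 8 (0.237% beside 0.0739%), and lower in LSK and higher in MEP 1 (0.0296% beside 0.0348%). Lower in both were all 3 probes of chr1:85304494-85305390 R. They read -0.96, -1.03 and -1.23 on DMSO LSK, -3.16, -2.66 and -2.59 on JQ1 LSK, -0.73, -0.49 and -0.81 on DMSO MEP, then -2.90, -2.47 and -2.63 on JQ1 MEP. Both JQ1 arrays were below both DMSO arrays for each, with differences of -2.23, -1.65 and -1.39 in LSK. A probe on chr9:121845920-121858120 F read 0.03, -2.16, -0.51 and -2.23, but the brighter probe of that strand read 1.49, 1.31, 0.48 and 1.21. Higher in both was a probe on chr8:91571643-91576878 R, at -2.57 and -3.47 with DMSO and -0.90 and -0.55 with JQ1, 3.13-fold in LSK and 6.33-fold in MEP; the second probe of that strand was detected nowhere.

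The comparison of cell types asks how MEP differ from LSK under each treatment. Under DMSO, 598 of 3972 measured interval probes (15.1%) were 2-fold higher in MEP and 224 (5.64%) lower, beside 8.55% and 4.5% over the array. RefSeq noncoding probes were near the intervals, with 14.8% higher and 4.64% lower of 431 measured. The split depended on signal and background correction. Above the median signal 64 were higher (8.67%) and 72 lower (9.76%), against 4.01% and 2.19% of the other probes. In the brightest quartile 4.11% were higher and 14.2% lower, beside 2.68% and 2.09% of all probes there. With normexp correction 4.66% of the interval probes and 3.87% of the others were higher. Every measured probe was higher in 82 of 941 interval and strand pairs (8.71%), beside 3.69%, and lower in 9 (0.956%), beside 1.12%. This comparison shares the DMSO MEP array with the JQ1 comparison in MEP, and the counts are given side by side for that reason only. Without centring the split was 431 higher (10.9%) and 386 lower (9.72%), against 5.38% and 6.61% of the other probes. Under quantile normalization it was 518 (13.0%) and 341 (8.59%), against 6.81% and 5.61%. Scaled to the spike-in RNAs it was 2109 (53.1%) and 21 (0.529%), against 45.4% and 0.600%. The median of all measured probes stood at -0.17 without centring and at 0.95 with the spike-in scaling. By bound, of 2377 probes detected on 1 of these arrays 381 (16.0%) were higher and 271 (11.4%) lower, against 16.8% and 13.9% of all such probes.

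The intervals higher in MEP under DMSO included those described above, chr4:129497990-129515290 F with 10 probes at 1.38 to 1.90 and chr16:90008636-90015586 R with 5 at 1.12 to 1.63. On chrX:54627918-54638568 R the 5 probes read from -2.04 to -0.31 on DMSO LSK, from -2.03 to -0.15 on JQ1 LSK, from -0.80 to 1.03 on DMSO MEP but from -2.43 to -0.63 on JQ1 MEP. Each was highest on DMSO MEP, by 1.24 to 1.62 over DMSO LSK. Of the 5 probes of chr17:12941161-12944859, an interval with no strand mark, all were detected on DMSO MEP, between -1.29 and -0.04. A single one of them was detected on DMSO LSK, none on JQ1 LSK and 3 on JQ1 MEP.

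Lower in MEP under DMSO were overlapping intervals of 1 locus on chromosome 17. The 5 probes of chr17:39960567-39992817 R read 3.58, 2.50, 3.32, 3.08 and 2.80 on DMSO LSK, 3.23, 2.14, 2.94, 2.69 and 2.54 on JQ1 LSK, 1.72, 0.61, 1.69, 1.30 and 0.95 on DMSO MEP, then 2.88, 1.73, 2.53, 2.29 and 2.09 on JQ1 MEP. DMSO MEP was the lowest array for each, by 1.45 to 1.71 below DMSO LSK. The shorter chr17:39980973-39981876 R and chr17:39979941-39981793 R within it gave -1.68 to -1.46 and -1.86 to -1.67, and the 3 measured probes of chr17:39982023-39983277 F, on the other strand, gave a median of -1.48. Of the 10 probes of chr10:94900849-94928059 R, 9 were detected on DMSO LSK. Of these 6 were detected on neither MEP array, and a probe at -0.51 and -0.87 in LSK read -3.30 and -2.99 in MEP, 6.14-fold lower under DMSO and 4.46-fold lower under JQ1. The remaining probes did not pass 2-fold. The brightest read 0.47, 0.31, -0.43 and -0.11, with differences of -0.73 under DMSO and -0.45 under JQ1. Another, not above background on JQ1 MEP, differed by -0.55 under DMSO.

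Under JQ1 the cell types differed less at the interval probes. Of 3612 measured, 70 (1.94%) were 2-fold higher in MEP and 257 (7.12%) lower, beside 3.17% and 4.32% over the array; the interval probes were thus below the array's share of higher probes and above its share of lower ones. With normexp correction the shares lower were nearer, at 1.83% of the interval probes and 1.58% of the others. Scaled to the spike-in RNAs the split was 44 (1.22%) and 416 (11.5%), against 2.23% and 7.31% of the others. Every measured probe was higher in 8 of 826 interval and strand pairs (0.969%, beside 1.5% over all names) and lower in 34 (4.12%, beside 2.26%). By bound, of 1444 probes detected on 1 of these arrays 192 (13.3%) were higher and 339 (23.5%) lower, against 17.2% and 22.8% of all such probes. Across the 3379 probes detected on all 4 arrays, the difference between cell types under DMSO had an r of -0.06 with that under JQ1, from separate arrays. Across 15295 messenger RNA probes it was 0.53, and across 402 RefSeq noncoding probes 0.15. Higher in MEP under both were 25 interval probes (0.740% of them, beside 1.28% of probes of all kinds), lower under both 13 (0.385% beside 1.16%), higher under DMSO but lower under JQ1 63 (1.86% beside 0.63%), and the reverse 1 (0.0296% beside 0.0391%).

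Some intervals differed between cell types in the same direction under both treatments, with all their probes. The 2 probes of chr5:77084398-77086144 R read -1.06 and -1.61 on DMSO LSK, -0.54 and -1.54 on JQ1 LSK, 1.86 and 1.12 on DMSO MEP, then 2.57 and 1.72 on JQ1 MEP. Both MEP arrays were above both LSK arrays, 8.53-fold and 7.44-fold under DMSO and 8.41-fold and 9.35-fold under JQ1. On chr15:62046023-62082530 F the 3 probes read -1.65, -0.51 and -2.35, then -1.09, -0.44 and -1.42 in LSK with DMSO and JQ1, and 0.37, 0.92 and -0.22, then 0.25, 0.66 and -0.33 in MEP, again with no overlap between cell types for any of the 3. On the lower side under JQ1 stood the chr3:30077338-30080281 R pair at -3.04 and -3.12 and the chr13:28947034-28949166 R pair at -2.64 and -2.71, which under DMSO lay between 0.24 and 0.72.

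Neighbouring intervals were followed along the chromosomes as runs, in which each next interval starts within 100 kb. Of 415 runs with 2 or more measured intervals, all measured probes were 2-fold lower with JQ1 in MEP in 16 and higher in 1, the chromosome 6 locus above. Under DMSO all were higher in MEP than in LSK in 6 of 428 such runs and lower in 3. Under JQ1 it was 1 of 400 each way. Runs were formed from intervals only, so no share over the array stands beside these counts. Among the runs lower with JQ1 in MEP, the one with the most probes was chr4:3745750-3757483, with 8 on 4 intervals at -2.53 to -1.27. On chr16:84702353-84710928 the 7 probes on 3 intervals lay between -2.19 and -1.66, and they included both strands: 2 measured F probes of the interval of that name differed by -1.84 each and its 3 R probes by -1.79, -1.66 and -2.03. On chr3:51784862-51891781 the 7 probes on 3 intervals lay between -2.48 and -1.97. That run was also lower in MEP than LSK under JQ1 at all 7 probes, by -1.55 to -1.28 relative to the median probe.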

How the data were processed

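The microarray was a 1-colour Agilent array of design 028005 on mm9. From 20 ng of total RNA, Cy3-labelled cRNA was made with a low-input amplification kit and 1-colour spike-in RNAs, per the labels' protocols. The deposited intensity values are those of Feature Extraction 10.7.1.1 (protocol GE1_107_Sep09), background-subtracted and detrended but not normalized between arrays, per the file headers. The deposited marks for well above background, outlier and saturation are the scanner software's, per the file headers. The authors' deposited value table holds a ratio per probe and array, used as an alternative source of values; the sources used here do not say how it was made.

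Computed here (Python 3.11.15, pandas 2.3.3, numpy 2.4.6, R 4.3.3 with limma 3.58.1) were log2 processed signals minus each array's 75th percentile, the mean over replicate spots without an outlier mark, and differences relative to the median of all non-control probes well above background on both arrays. Of the interval probes 6 had an outlier mark on some array and none was saturated. A probe well above background on only 1 array has a bound, from the lowest signal among probes well above background on the dim array or the probe's own there, whichever was higher. The calculation was tested on simulated data. All 4 arrays lie on 1 slide. No sequence of an interval or probe is printed, because the scanner files carry none and no mm9 genome was used here.

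Named were the 10 brightest interval probes, the 10 highest and 10 lowest in each JQ1 comparison and the 6 highest and 6 lowest in each cell type comparison, the 3 highest and 3 lowest bounds, intervals whose 2 or more measured probes all passed 2-fold one way, the probes past 2-fold in both JQ1 comparisons, and the runs with the most probes; the text gives those among them that show a pattern. The 571 probes of chromosome 18 were counted and not named. The members, the marker lists and these rules were chosen with earlier results of these data known.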

Additional observations from a re-analysis of the deposited data

Results flagged for a closer look

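The difference between MEP and LSK at the median interval probe was 0.10 under DMSO and -0.10 under JQ1, a change of -0.20 on the log2 scale; with 1 array per group it was not tested. It drew attention because the 2 treatments gave opposite directions. These directions depended on the setting: both medians were below 0 with quantile normalization (-0.014 and -0.027), with 75th percentile scaling without centring (-0.074 and -0.063), with normexp (-0.031 and -0.052) and above the median signal (-0.16 and -0.043), they stayed opposite with spike-in scaling (1.05 and -0.37), and without the background filter they swapped (-0.41 and 0.10). The other probes moved as well. Their medians were -0.19 and 0.052 without centring, -0.059 and 0.050 above the median signal, 0.94 and -0.25 with spike-in scaling, and -0.19 and 0.098 without the filter.

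At a few interval probes JQ1 went with a 2-fold difference in one direction in LSK and in the other in MEP, each from a single pair of arrays per cell type and not tested. Higher in LSK and lower in MEP were 8, of which 7 are off chromosome 18 and are named: on chr2:72818943-72826893 F (difference in MEP minus that in LSK -4.13), chr17:3206316-3208050 F (-3.89), chr12:52886460-52888921 R (-3.21), chr9:24292762-24307562 R (-3.12), chr3:30099759-30133959 R (-2.96), chr2:71576218-71603818 R (-2.86) and chr12:86415200-86415483 F (-2.37). The probe on chr2:72818943-72826893 F read -2.38 and -0.94 in LSK with DMSO and with JQ1, and -0.39 and -2.84 in MEP. Lower in LSK and higher in MEP was 1, on chr4:127020290-127020504 F (3.37), at -1.46, -3.42, -3.50 and -1.87 on the same arrays; its neighbour on that strand read -2.08, -3.53, -3.74 and, not above background, -4.06.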

How the results depend on the processing

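Counts below give interval probes 2-fold higher and lower, then the median difference, for JQ1 in LSK, then JQ1 in MEP, then the cell types under DMSO, then those under JQ1. With the authors' deposited values or with outlier-marked spots kept, no count moved by more than 1.5 times. The medians were -0.12, -0.26, 0.099 and -0.10 with the deposited values. With the marked spots kept they were -0.12, -0.26, 0.10 and -0.10. Only 6 interval probes had an outlier mark, so keeping such spots could change little. Without the background filter they were 748 and 1524 (-0.43), 752 and 3622 (0.11, turned), 2288 and 1261 (-0.41, turned), and 971 and 1598 (0.10, turned). The centre was kept from the filtered probes here, and the other probes had medians of -0.17, 0.14, -0.19 and 0.098. With only the probes above the median signal they were 0 and 2 (-0.10), 5 and 76 (0.074, turned), 64 and 72 (-0.16, turned), and 8 and 28 (-0.043). The centre was that of all measured probes, and the other probes had medians of 0.039, 0.13, -0.059 and 0.050. In both of these settings the interval median for JQ1 in MEP stayed below that of the others. Counting 1 value per interval and strand gave 17 and 54 (-0.16), 21 and 423 (-0.23), 240 and 117 (0.012), and 33 and 111 (-0.11). With normexp correction (offset 50) of the median spot signal, chosen after seeing the data because the files hold no mean spot signal for the planned version, which was not run, they were 2 and 9 (-0.12), 11 and 418 (-0.092), 185 and 61 (-0.031, turned), and 21 and 66 (-0.052). Scaling to the spike-in RNAs without centring gave 307 and 30 (0.47, turned), 15 and 1607 (-0.86), 2109 and 21 (1.05), and 44 and 416 (-0.37). The other probes moved as well, to medians of 0.61, -0.57, 0.94 and -0.25. Quantile normalization gave 48 and 94 (-0.074), 153 and 668 (-0.031), 518 and 341 (-0.014, turned), and 78 and 193 (-0.027). Scaling to the 75th percentile without centring gave 42 and 109 (-0.10), 122 and 689 (-0.0024), 431 and 386 (-0.074, turned), and 74 and 243 (-0.063). The other probes had medians of 0.044, 0.29, -0.19 and 0.052. Centring on transcript probes moved the medians to -0.14, -0.29, 0.11 and -0.12. The cause of these shifts was not tested, apart from the fewer probes that 2 of the settings leave.

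In each of these settings that was run per probe, the share 2-fold lower with JQ1 in MEP was larger among interval probes than among the others, from 10.3% against 3.60% in the brighter probes to 42.7% against 22.3% with the spike-in scaling. The share detected, by the milder mark of a positive and significant signal, was 51.8% and 53.8% in LSK with DMSO and JQ1 and 63.4% and 50.7% in MEP, and, in the same order, 50.4%, 53.2%, 62.1% and 48.1% with 1 value per interval and strand. Of 784 differences of named probes measured in a comparison, 268 moved by more than the spread of probes of the same interval with normexp and 6 with quantile normalization. The spike-in scaling moved 599, but it shifts all probes of a comparison by 1 constant (0.60, -0.60, 0.95 and -0.27 in the order above). The spreads were 0.35, 0.51, 0.49 and 0.36. None moved in the 5 other per-probe settings that gave all of them. Of these, the filter setting leaves a measured value as it is, and those of centring shift all probes by less than the spread. Counts under the spike-in, filter and centring settings were thus fixed in advance and do not check single probes. No paired analysis was possible because each group has 1 array. No array could be left out for the same reason. Of the interval probes 57.7% were well above background on no array, so absence of a transcript cannot be read from them.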
